A study of Mus musculus with 5 samples.

Results

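The potassium channel genes of the array were taken as all genes whose symbol begins with Kcn, followed by a subfamily letter and a number, apart from Kcnj11, which is given with the partner genes. The rule found 93 genes among the 31754 genes of the array, measured by 132 probes. Of these genes, 61 had 1 probe and 32 had several, and the probe with the highest mean signal stood for the gene. The rule selects by name, so it also takes accessory subunits and 1 RNA that is not a channel, Kcnq1ot1. RNA came from MIN6, a mouse insulinoma line that secretes insulin, which the labels describe as pancreatic. The EXO-STD group (n = 2 arrays) had been treated with exosomes, small vesicles released by cells, here by muscle that was taken from standard-diet mice and kept ex vivo. The EXO-HP group (n = 3 arrays) had received exosomes prepared in the same way from the muscle of high-fat-diet mice. Neither dose, duration, age of the mice nor untreated cells are given in the labels used here, so both groups share exposure to muscle exosomes. The samples are titled biological replicates without saying whether cultures or exosome preparations were separate, and a p-value here reflects only how far these samples spread, which may be technical.

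In a beta cell, potassium channels set the membrane potential. At rest, channels that close when ATP is high keep the cell polarised, and their closure after a meal lets calcium channels open and insulin leave the cell. Voltage-gated and calcium-activated potassium channels then repolarise the cell after each action potential, while two-pore channels carry a leak current. Most of these channels are assembled from several subunits, and accessory subunits change how many reach the membrane and how fast they open and close.

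The arrays did not detect RNA equally well. Slide 1, read in scan 1, held both EXO-STD arrays and the first EXO-HP array. Slide 2, read in scan 2, held EXO-HP arrays 2 and 3. The share of all genes well above background, the scanner software's flag for a signal clearly over the local background, was 71.5% to 73.7% on slide 1, against 91.9% and 81.5% on the 2 arrays of slide 2. All 16 listed beta cell markers were well above background on every array, and their summed signal was 928 to 1120 times the 75th percentile of an array. Of 16 skeletal muscle markers, 9 were well above background on every array. All 12 of those tested were higher in EXO-HP, with a median log2 difference of 0.48. The medians of adipocyte markers (0.50, 3 of 3 tested higher) and fibroblast markers (0.43, 3 of 4 tested higher) were of similar size. Among all genes well above background on every array, 57.7% were higher. Among tested genes that missed this on some array, 87.4% were higher, with a median difference of 0.75. The muscle, adipocyte and fibroblast lists each held tested genes of both kinds. The adipocyte and fibroblast lists were highest on EXO-HP replicate 2, with medians of 1.92 and 0.81 over the EXO-STD mean. So were all remaining lists but those of beta cell, muscle and neuron, with medians on that array from 0.47 (alpha cell) to 1.07 (duct). Muscle markers were highest on EXO-HP replicate 1, the EXO-HP array of slide 1, at 0.72. For the lists other than muscle, adipocyte and fibroblast, beta cell markers included, the median log2 difference lay between -0.03 and 0.25. The summed muscle signal was 1.31 to 1.63 in EXO-STD and 3.52, 1.95 and 1.62 on EXO-HP replicates 1, 2 and 3. That of adipocyte markers was 0.0751 to 0.0775 against 0.0799 to 0.223, and that of fibroblast markers 0.152 to 0.159 against 0.152 to 0.31. The lists are named after cell types, but the labels name no cultured cells other than MIN6. Bulk RNA does not show where the marker RNA came from, and its source was not tested. Its part in the differences below was not tested either.

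MIN6 cells gave a signal well above background on all 5 arrays for 55 of the 93 genes, or 59.1%, compared with 68.5% of all genes of the array. These 55 are called expressed genes here. Of the other genes, 3 reached this level on 4 arrays, 4 on 3 arrays, 13 on 2 arrays and 11 on 1 array, and 7 on none. The share of expressed genes ranged widely over the classes. Voltage-gated pore subunits of the Kcna, Kcnb, Kcnc and Kcnd subfamilies, which form the channels that open on depolarisation, were expressed in 14 of 17 cases. Among the ether-a-go-go genes (Kcnh), voltage-gated channels with a slow or long-lasting current, 7 of 8 were expressed. At the other end, 1 of 10 silent subunits (Kcnf, Kcng, Kcns and Kcnv) was expressed. Silent subunits form no channel of their own and modify Kcnb channels. Between these stood two-pore channels (9 of 14), accessory subunits (8 of 12), calcium- or sodium-activated channels and their subunits (6 of 12), inward rectifiers (7 of 14) and Kcnq channels (2 of 5).

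**Figure D1:**
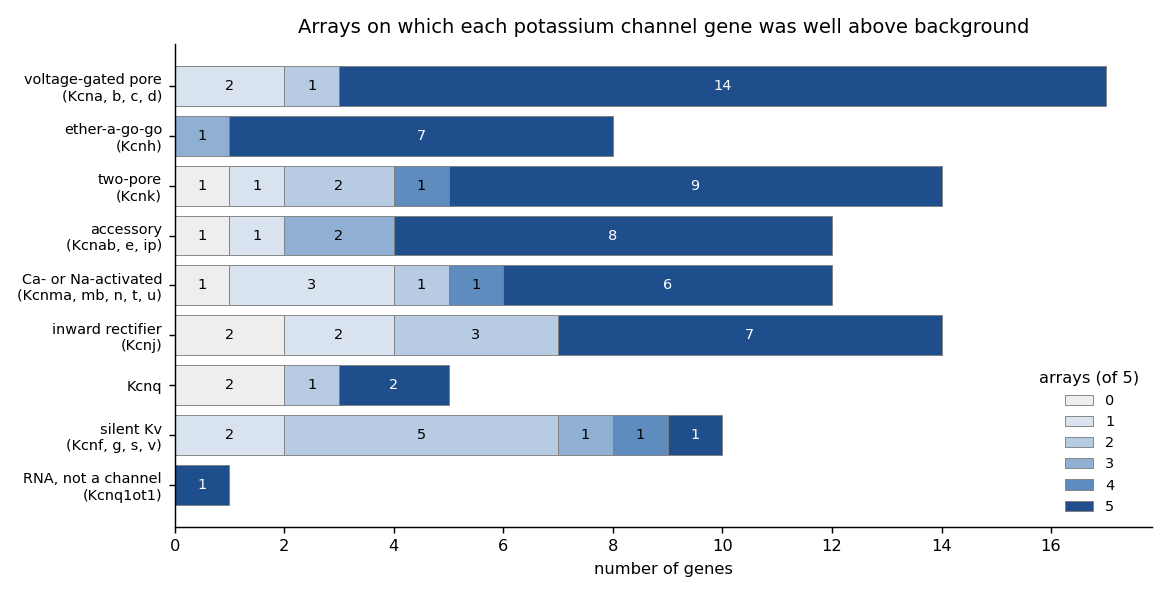
Number of potassium channel genes in each class, divided by the number of arrays (0 to 5) on which the gene's probe was well above background. The darkest part of each bar is the expressed genes, 14 of 17 voltage-gated pore genes and 7 of 8 Kcnh genes against 1 of 10 silent subunits.

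The 3 genes just outside the rule were Kcnmb3, an accessory subunit of the large-conductance calcium-activated channel, Kcnf1, a silent subunit, and Kcnk12, a two-pore channel. Each was well above background on every EXO-HP array and on 1 of the 2 EXO-STD arrays. The brightest gene that was not expressed was Kcnmb3, with a mean normalised log2 signal of -4.94, where 0 is the 75th percentile of an array. The dimmest expressed gene was Kcnj14 at -5.93, so the rule, which uses the scanner's local background, is not a fixed threshold on the signal. The number of genes well above background was 59 and 60 of 93 on the EXO-STD arrays, and 61, 85 and 71 on EXO-HP replicates 1, 2 and 3. The EXO-HP array on slide 1 thus lay near the EXO-STD arrays, and the count was higher on both arrays of slide 2.

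The mean signal of the 55 expressed genes ran from 1.62 to -5.93 on the normalised log2 scale, with a median of -2.09 against -1.08 over all 21740 expressed genes. For 7 of them the mean lay above the 75th percentile of the array. The order below is one of probe brightness. Probes bind with different efficiency, so it is not a ranking of transcript amounts. The order itself was steady: Spearman's rho between the 5 arrays over the 55 genes was 0.952 to 0.988, a description across genes that share arrays. Of the 54 pairs of neighbours in the order, 49 differed by less than their pooled SD over the arrays. Steps larger than this SD followed Kcnip3, Kcna4, Kcnk4, Kcnh3 and Kcnmb4.

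**Figure D2:**
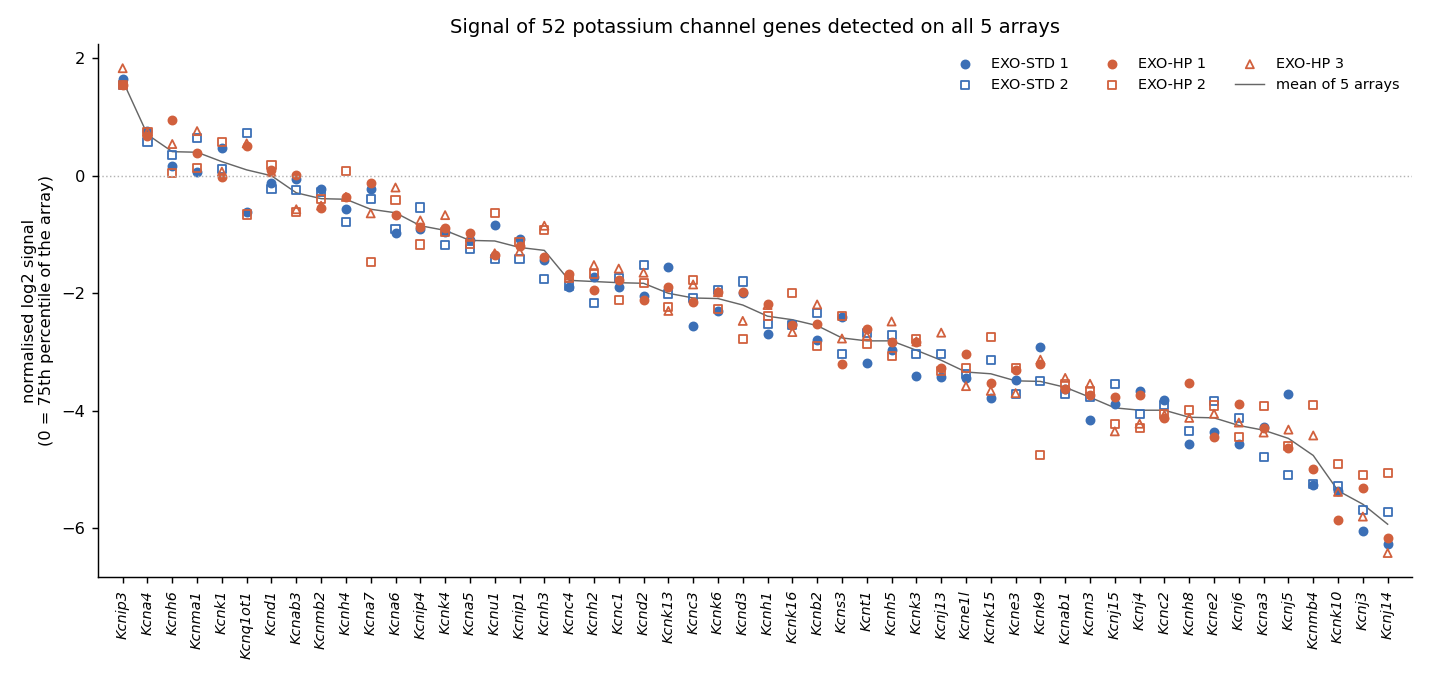
Normalised log2 signal (vertical axis; 0 is the 75th percentile of an array) of 52 of the 55 expressed genes in order of mean signal. Points are single arrays, blue for EXO-STD and orange for EXO-HP, and the line joins the means over 5 arrays, from 1.62 for Kcnip3 to -5.93 for Kcnj14.

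The brightest probe was that of Kcnip3, a calcium-binding subunit of Kcnd channels that is also known as a DNA-binding repressor. It read 1.65 and 1.54 on the EXO-STD arrays and 1.55, 1.54 and 1.83 on the EXO-HP arrays. Kcna4, a fast-inactivating channel, followed with 0.77 and 0.58 in EXO-STD and 0.68, 0.75 and 0.74 in EXO-HP. For both genes the 5 arrays lay close together and the groups overlapped. Kcnk1, a two-pore channel with a weak inward rectification, read 0.47 and 0.11 in EXO-STD and -0.02, 0.57 and 0.07 in EXO-HP. Kcnb2, a delayed rectifier, read -2.80 and -2.33 in EXO-STD and -2.52, -2.90 and -2.19 in EXO-HP. For Kcnb2, whose difference was 0.03 ± 0.29 (SE), EXO-STD replicate 1 and EXO-HP replicate 2 were the 2 lowest arrays, 1 from each group.

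The comparison of EXO-HP with EXO-STD asked whether exosomes from muscle of fat-fed mice were followed by other levels of these genes. No potassium channel gene passed the test. With limma, which was the single tool run, 0 of the 55 expressed genes passed an adjusted p of 0.05, and the same was true of 0 (0%) of the 31943 probes tested and of 0 (0%) of all expressed genes. At an unadjusted p under 0.05 the count was also 0 of 55, beside 2.96% of all expressed genes (2.73% higher and 0.23% lower in EXO-HP). Over all tested probes, dim ones included, 5.39% were higher and 0.238% lower at that threshold. Among the 55 genes the smallest unadjusted p was 0.0585, with an adjusted p of 0.903 in limma. Log2 differences, given throughout as EXO-HP minus EXO-STD, ran from -0.52 to 0.83, and for 50 of the 55 genes they were smaller than 0.5 in either direction. The median standard error was 0.25. Single genes moved with the processing, and a range given beside a difference covers its 16 alternatives (other scalings, blocks, weights, probes, or 1 array left out). For 39 genes the 95% interval of the difference lay within a 2-fold change either way, and for 16 it reached beyond.

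Of the 55 expressed genes, 38 (69.1%) had a higher mean in EXO-HP and 17 a lower one, compared with 57.7% higher among all expressed genes. That split depended on the scaling of the arrays. After normexp background correction and quantile normalisation 27 (49.1%) were higher, after quantile normalisation alone 25 (45.5%), and after median scaling 19 (34.5%). Normexp was run with an offset of 50 added to each intensity. Such an offset by itself makes the log2 differences of dim probes smaller, which holds for all values given after normexp. The median difference was 0.11 in the main scaling, against 0.04 over all expressed genes. Median scaling moved it to -0.07, and that of all expressed genes to -0.14. The genes' median lay 0.07 above that of all expressed genes under both of these scalings. Each of them subtracts 1 value per array, so this gap could not differ between them. After quantile normalisation, which can change it, the gap was 0.02 (-0.01 against -0.03). Relative to the EXO-STD mean, the median gene stood at -0.01 and 0.01 on the EXO-STD arrays and at 0.12, 0.11 and 0.15 on the EXO-HP arrays. With slide as a block, which leaves EXO-HP replicate 1 against the EXO-STD arrays of slide 1, the median was 0.12. The groups did not overlap for 15 of the 55 genes (27.3%; 13 higher and 2 lower in EXO-HP), compared with 15.1% of all expressed genes (11.9% higher and 3.18% lower). An exact permutation test of 2 against 3 arrays cannot give a 2-sided p below 0.2.

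**Figure D3:**
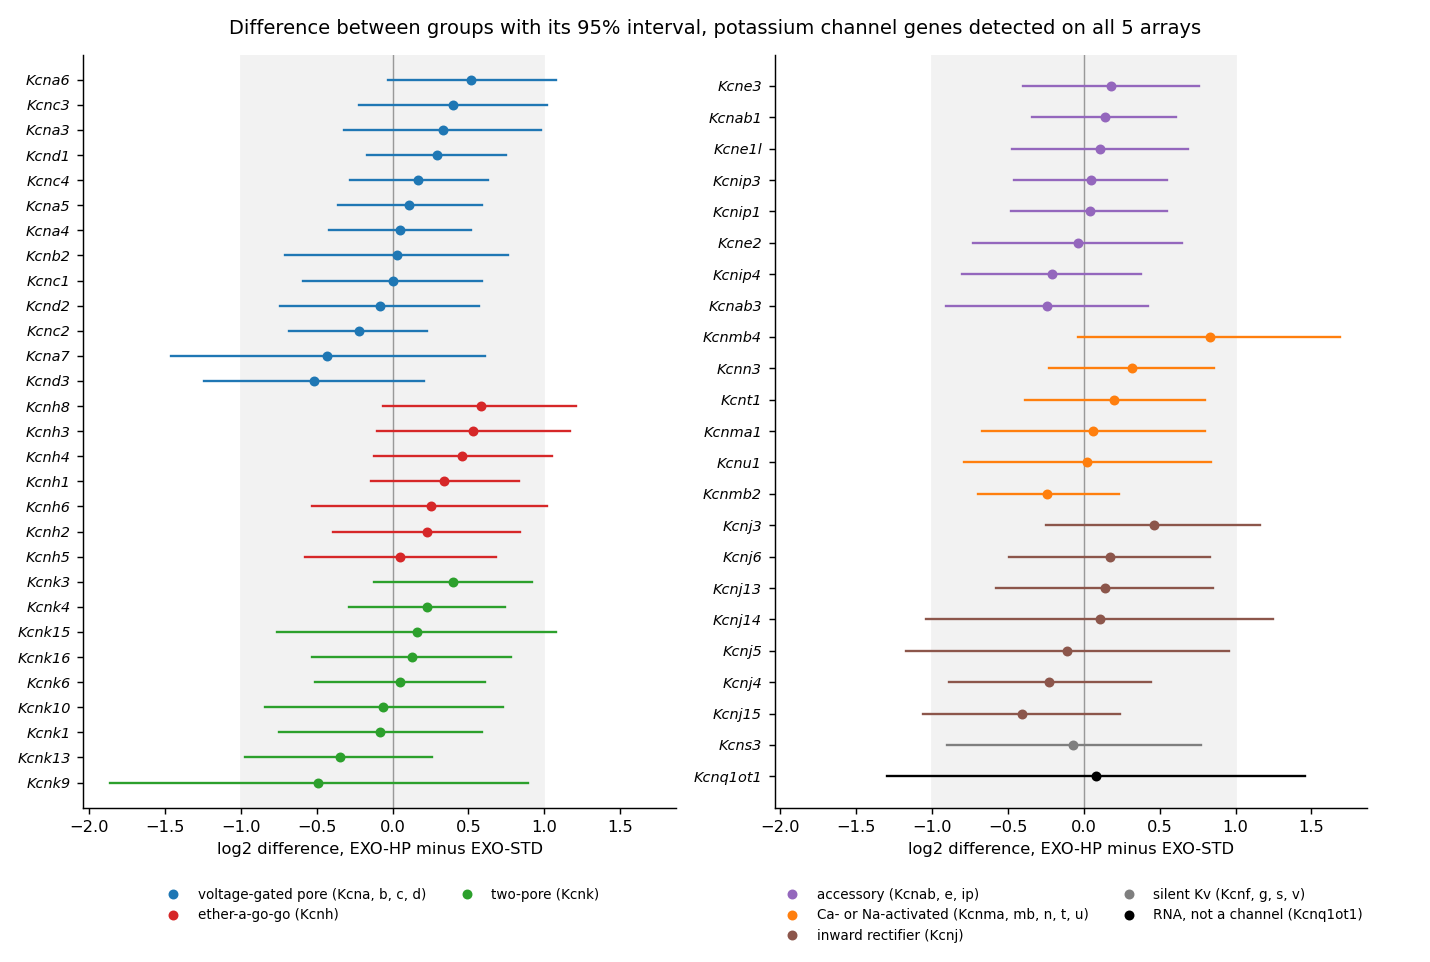
Log2 difference (EXO-HP minus EXO-STD) of 52 of the 55 expressed genes with its 95% interval from limma, grouped and coloured by class. The grey band marks differences within 2-fold; 36 of the 52 intervals lie inside it, and all 52 intervals include 0.

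The 7 expressed Kcnh genes all had a higher mean in EXO-HP in the main scaling (57.7% of all expressed genes did), with a median difference of 0.34, and 6 of the 7 had one under each of the other scalings (median 0.24 after normexp, 0.25 after quantile normalisation and 0.17 after median scaling). None passed the test. Their median relative to the EXO-STD mean was -0.09 and 0.09 on the EXO-STD arrays and 0.31, 0.27 and 0.36 on the EXO-HP arrays. In 4 of the 7 the groups did not overlap and EXO-HP was higher, which held for 11.9% of all expressed genes. Within slide 1, 6 of the 7 were higher, with a median of 0.31.

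Kcnh8, Kcnh3 and Kcnh4, the Elk members of this family, which activate at negative voltages in neurons, had the largest differences of the class. Kcnh8 read -4.57 and -4.34 in EXO-STD and -3.53, -3.98 and -4.12 in EXO-HP, a difference of 0.58 ± 0.25 (SE; limma adjusted p = 0.912). The array of EXO-HP on slide 1 was its highest, and the difference ranged from 0.13 after normexp to 0.92 within slide 1. Kcnh3 read -1.43 and -1.75 in EXO-STD and -1.39, -0.93 and -0.85 in EXO-HP, a difference of 0.53 ± 0.26 (limma adjusted p = 0.929). Here the high arrays were those of slide 2, and the difference ranged from 0.20 within slide 1 to 0.70 without EXO-HP replicate 1. Kcnh4 read -0.57 and -0.78 in EXO-STD and -0.36, 0.08 and -0.36 in EXO-HP, a difference of 0.46 ± 0.23 (range 0.29 to 0.57; limma adjusted p = 0.952). All 3 genes had every EXO-HP array above both EXO-STD arrays, although the gap between the groups was 0.04 for Kcnh3. A second Kcnh8 probe, well above background on 4 arrays, had overlapping groups and a difference of 0.36 ± 0.40. Dimmer probes of Kcnh8 and Kcnh4, each well above background on 1 array, were not tested.

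Kcnh2 and Kcnh6 are Erg members of the class. Kcnh2 repolarises heart muscle, and Erg channels have been described in islets. Kcnh6, the third brightest probe of all, read 0.17 and 0.35 in EXO-STD and 0.95, 0.04 and 0.54 in EXO-HP, a difference of 0.25 ± 0.31 with overlapping groups (0.03 without EXO-HP replicate 1, its highest array). Kcnh2 read -1.72 and -2.16 in EXO-STD and -1.95, -1.67 and -1.52 in EXO-HP, a difference of 0.23 ± 0.25. It also overlapped between groups, and within slide 1 its difference was -0.01.

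Among the 14 expressed voltage-gated pore genes, 9 had a higher and 5 a lower mean in EXO-HP, with a median difference of 0.07 (0.02 after normexp, with 7 higher and 7 lower, and -0.11 after median scaling, with 4 higher and 10 lower). Kcna6, a delayed rectifier of the Kcna subfamily, read -0.98 and -0.91 in EXO-STD and -0.67, -0.41 and -0.20 in EXO-HP. All EXO-HP arrays were above both EXO-STD arrays, and the difference was 0.52 ± 0.22 (limma adjusted p = 0.903). It ranged from 0.28 within slide 1 to 0.65 with array weights. Kcnd3, a pore subunit of fast transient currents, went the other way, from -1.99 and -1.80 in EXO-STD to -1.98, -2.78 and -2.47 in EXO-HP, a difference of -0.52 ± 0.29 (limma adjusted p = 0.967). Its lower values were those of slide 2, and within slide 1 the difference was -0.09, against -0.73 without EXO-HP replicate 1. Another member of the same subfamily, Kcnd1, read -0.13 and -0.22 in EXO-STD and 0.09, 0.19 and 0.06 in EXO-HP, a difference of 0.29 ± 0.19 without overlap (0.12 after median scaling). A second Kcnd1 probe, well above background on all arrays, had overlapping groups and a difference of 0.05 ± 0.21. Kcnc2, a fast delayed rectifier, had the small difference of -0.22 ± 0.18 (-0.49 after quantile normalisation). Its groups did not overlap, at -3.82 and -3.90 in EXO-STD and -4.12, -4.06 and -4.07 in EXO-HP. Kcna5 differed by 0.11 ± 0.19, with -1.10 and -1.25 in EXO-STD and -0.97, -1.16 and -1.04 in EXO-HP. Dimmer probes of Kcna6 (well above background on 2 arrays and on 1 array), Kcnd3 (1 array) and Kcna5 (0 arrays) were not tested.

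Kcna7, known mainly from skeletal and heart muscle, had 2 probes above background on all arrays, and they differed in sign. The probes are 60 bases long, and the first 30 bases of each, with the mm9 position of the whole probe as the array design gives it, show that the probes sample separate stretches of the gene. No bases are marked.
Kcna7 probe at chr7:52664902-52664961, plus strand: aggtgtgctcaccatctctctgcctgtgcc
Kcna7 probe at chr7:52666474-52666533, plus strand: gtcagcatcccttagagccaaggaaggtca
The first of these, the brighter, read -0.23 and -0.40 in EXO-STD and -0.12, -1.47 and -0.64 in EXO-HP, a difference of -0.43 ± 0.42. The second read -3.95 and -3.88 in EXO-STD and -4.57, -2.87 and -3.83 in EXO-HP, a difference of 0.16 ± 0.50. EXO-HP replicate 2 was the lowest array for one probe and the highest for the other.

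Kcnma1 encodes the pore of the large-conductance channel opened by calcium and depolarisation together. Its 3 probes, shown for the same reason by their first 30 bases and the mm9 position of the 60, were all above background on all arrays.
Kcnma1 probe at chr14:24118701-24118760, minus strand: agattccttgatgcacatttctcttctttc
Kcnma1 probe at chr14:24126279-24126338, minus strand: tgggtgggcagtcaatgtatacatgtaaat
Kcnma1 probe at chr14:24130916-24130975, minus strand: tggtgatctgttctgcaaagctctgaaaac
The brightest, given first, read 0.07 and 0.65 in EXO-STD and 0.39, 0.13 and 0.76 in EXO-HP, a difference of 0.06 ± 0.30. The second read -0.01 and 0.13 in EXO-STD and -0.04, -0.36 and -0.55 in EXO-HP, a difference of -0.37 ± 0.23. The third read -2.76 and -2.52 in EXO-STD and -2.36, -2.58 and -2.41 in EXO-HP, a difference of 0.19 ± 0.20. The probes of this gene therefore gave no common direction. Across the 13 genes with several probes above background on all arrays, Kcnma1 and Kcna7 were the 2 whose probes differed in sign.

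Among the 55 expressed genes the largest difference was that of an accessory subunit of the Kcnma1 channel. Kcnmb4, which slows the channel's activation and is best known from neurons, read -5.27 and -5.25 in EXO-STD and -4.99, -3.90 and -4.42 in EXO-HP. The difference was 0.83 ± 0.35 (95% interval -0.04 to 1.69; limma adjusted p = 0.903), and it was 0.27 within slide 1. Its 2 highest arrays were those of slide 2, and its difference ranged from 0.19 after normexp to 1.10 without EXO-HP replicate 1. A second Kcnmb4 probe, well above background on 4 arrays, read -4.96 and -5.55 in EXO-STD and -5.73, -4.67 and -5.30 in EXO-HP, a difference of 0.02 ± 0.38, and the mean of both probes gave 0.42. Kcnmb2, an inactivating subunit, had a small difference in the other direction. It read -0.22 and -0.27 in EXO-STD and -0.55, -0.39 and -0.51 in EXO-HP, a difference of -0.24 ± 0.19 with no overlap. A second Kcnmb2 probe, well above background on all arrays, had overlapping groups and a difference of -0.03 ± 0.21. Kcnn3, a small-conductance calcium-activated channel, read -4.16 and -3.76 in EXO-STD and -3.73, -3.66 and -3.54 in EXO-HP, a difference of 0.32 ± 0.22. It was 0.06 after normexp, 0.07 after quantile normalisation and 0.12 without EXO-STD replicate 1, its lowest array, and 0.58 as the mean of its probes. Kcnn4, the intermediate-conductance channel, was not well above background on either EXO-STD array. Of the 6 expressed genes of this class, 5 had a higher mean in EXO-HP and 1 a lower one, with a median of 0.13 (-0.04 after median scaling, with 3 higher and 3 lower).

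Among the 9 expressed two-pore channels 5 were higher and 4 lower, with a median difference of 0.05 (-0.05 after quantile normalisation and -0.13 after median scaling). Kcnk16, which is known for its expression in pancreas and its leak current in beta cells, read -2.52 and -2.54 in EXO-STD and -2.54, -2.0 and -2.66 in EXO-HP, a difference of 0.13 ± 0.26. Apart from EXO-HP replicate 2, the arrays lay within 0.14 of each other. Kcnk3, an acid-sensitive leak channel, read -3.40 and -3.03 in EXO-STD and -2.83, -2.78 and -2.82 in EXO-HP, a difference of 0.40 ± 0.21 without overlap (limma adjusted p = 0.952). The EXO-HP arrays of both slides lay close together for this gene. The difference was 0.38 within slide 1, but 0.21 after normexp and without EXO-STD replicate 1, and 0.59 without EXO-STD replicate 2. Kcnk13 had a lower mean in EXO-HP, with -1.56 and -2.02 in EXO-STD and -1.90, -2.23 and -2.30 in EXO-HP, a difference of -0.35 ± 0.25. It was -0.12 within slide 1 and without EXO-STD replicate 1, its highest array, and -0.59 without EXO-STD replicate 2. Kcnk1, whose values are given above, differed by -0.08 ± 0.27.

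The 7 expressed inward rectifiers, which carry potassium more readily into than out of the cell, had probes in the lower part of the brightness order, from Kcnj13 to Kcnj14. Their median difference was 0.11, with 4 higher and 3 lower, but -0.14 after normexp and -0.38 after quantile normalisation, with 0 higher in both, and -0.07 after median scaling. In none did the groups lie apart. Kcnj6, a G protein-gated channel, read -4.57 and -4.12 in EXO-STD and -3.89, -4.44 and -4.20 in EXO-HP, a difference of 0.17 ± 0.27. Kcnj15 read -3.88 and -3.54 in EXO-STD and -3.77, -4.23 and -4.35 in EXO-HP, a difference of -0.41 ± 0.26 (limma adjusted p = 1). Its low arrays were those of slide 2, with a difference of -0.07 within slide 1 and -0.69 after quantile normalisation. By comparison Kcnj11, the pore of the ATP-sensitive channel, read -0.34 and -0.41 in EXO-STD and -0.02, -0.45 and -0.27 in EXO-HP, a difference of 0.13 ± 0.22.

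Kcnq1ot1 is a long RNA that is transcribed from within the Kcnq1 locus in the opposite direction and takes part in imprinting. Its probes lay on the minus strand and that of Kcnq1 on the plus strand of the same part of chromosome 7 (mm9). The first 30 of the 60 bases of each probe are given because the 2 transcripts share a locus on opposite strands and 1 of them was detected.
Kcnq1ot1 probe at chr7:150440140-150440199, minus strand: ttctcagccaaagggcctactcgttagggt
Kcnq1ot1 probe at chr7:150434020-150434079, minus strand: cccagaaatgataactgagtcacagaaaaa
Kcnq1 probe at chr7:150612887-150612946, plus strand: aatttcgtagtatgatcttgattgagagac
The brighter Kcnq1ot1 probe, given first, read -0.62 and 0.72 in EXO-STD and 0.51, -0.66 and 0.55 in EXO-HP, a difference of 0.08 ± 0.55. The second probe read -2.74 and -1.56 in EXO-STD and -1.68, -2.76 and -1.92 in EXO-HP, a difference of 0.03 ± 0.48. On both probes EXO-STD replicate 1 and EXO-HP replicate 2 were the lowest arrays, 1 from each group, at least 1.13 below the others on the first and 0.82 on the second. The Kcnq1 probe cleared the background on none of the 5 arrays.

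The accessory subunits had small differences in both directions, between -0.24 and 0.18, with no gene whose groups lay apart. Their median was 0.04, and it was negative after normexp (-0.08), quantile normalisation (-0.08) and median scaling (-0.13). Kcnip3, the brightest of all, differed by 0.05 ± 0.20. A second, dimmer Kcnip3 probe, well above background on all arrays, differed by 0.43 ± 0.25, and the mean of both probes gave 0.24. Kcnip1 read -1.07 and -1.41 in EXO-STD and -1.20, -1.13 and -1.29 in EXO-HP, a difference of 0.04 ± 0.21. Kcnab3, a cytoplasmic subunit of Kcna channels, read -0.06 and -0.24 in EXO-STD and 0.01, -0.62 and -0.57 in EXO-HP, a difference of -0.24 ± 0.27. Its lower arrays were those of slide 2, and within slide 1 the difference was 0.16. The single expressed silent subunit, Kcns3, differed by -0.07 ± 0.34, and by 0.25 without EXO-STD replicate 1.

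A further 16 genes were bright enough to be tested without being expressed on all arrays, and 22 genes were not tested. Of these 16, 15 were higher in EXO-HP. A higher value was also the rule among all 4104 genes of the array in this position (87.4%), and a gene that entered through its EXO-HP arrays had to differ, so the count says nothing about potassium channels. Relative to the EXO-STD mean, the median of the 16 was -0.02 and 0.02 on the EXO-STD arrays, and 0.26, 1.60 and 0.98 on EXO-HP replicates 1, 2 and 3. For all such genes it was -0.06, 0.06, 0.22, 1.42 and 0.65. The shift of dim genes was thus found on slide 2, where more probes were well above background, and its source was not tested.

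**Figure D4:**
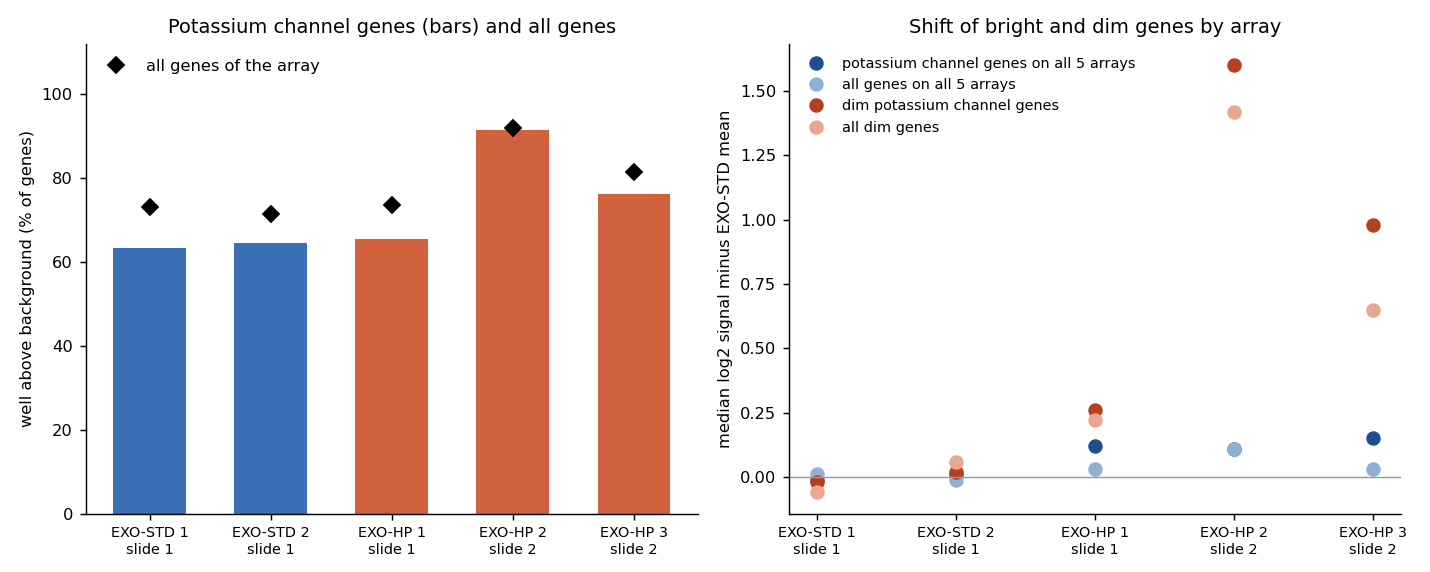
Left, share of the 93 potassium channel genes (bars) and of all genes (diamonds) well above background on each array. Right, median log2 signal of bright and dim genes on each array relative to the mean of the EXO-STD arrays, with the dim genes at 1.60 and 0.98 on the EXO-HP arrays of slide 2 for potassium channels.

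None of the 16 passed an adjusted p of 0.05 in limma. In all, 11 were not well above background on any EXO-STD array. They entered through their EXO-HP arrays alone, so their direction was set by the filter, and their folds are given as bounds in the main scaling with no test drawn from them. A bound sets the EXO-HP mean against the higher, on each EXO-STD array, of its own signal and the dimmest one that cleared the background there. Kcnj12, a strong inward rectifier of muscle and heart, had the highest bound, at least 2.20-fold. It read -6.15 and -6.76 in EXO-STD and -5.80, -4.65 and -4.55 in EXO-HP. Kcnh7, the remaining Erg gene, followed with at least 1.55-fold. These bounds did not hold after normexp, whose offset of 50 by itself makes log2 differences of dim probes smaller. The log2 difference of Kcnj12 was 1.46 as measured, 0.65 within slide 1 and 0.33 after normexp, and that of Kcnh7 was 1.32, 0.76 and 0.25. The bound was at least 1 for 9 of the 11, and no fold is given for the other 2, Kcng3 and Kcnj16. Kcnf1, well above background on 1 EXO-STD array, read -5.43 and -5.82 in EXO-STD and -5.81, -3.67 and -4.14 in EXO-HP, so that only the arrays of slide 2 were high. Kcnn4 read -8.34 and -6.21 in EXO-STD and -7.96, -4.05 and -6.39 in EXO-HP, the widest spread among the genes named here.

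Genes that work with these channels were read from a list of 60, holding sodium pumps, cotransporters, ATP-sensitive channel subunits, pacemaker channels and scaffold proteins, of which 50 were expressed. None of the 50 passed an adjusted p of 0.05 in limma, 0 had an unadjusted p under 0.05, and adjusted values ran from 0.926 to 1. A higher mean in EXO-HP was found for 34 and a lower one for 16, with a median difference of 0.05. Among all expressed genes 57.7% were higher, the median was 0.04, and 2.96% had an unadjusted p under 0.05 in limma. How the partner genes split under other scalings was not counted. Dlg4, a scaffold protein that binds the tail of Kcna channels, read -0.68 and -0.41 in EXO-STD and -0.82, -1.02 and -1.17 in EXO-HP, a difference of -0.46 ± 0.22 without overlap (limma adjusted p = 0.926). Vapb, a membrane protein of the endoplasmic reticulum, read 3.80 and 4.77 in EXO-STD and 4.88, 4.80 and 5.08 in EXO-HP, a difference of 0.64 ± 0.33. EXO-STD replicate 1 was its low array, and the difference was 0.15 without that array and 1.12 without EXO-STD replicate 2. Slc24a3, an exchanger of potassium, sodium and calcium, differed by 0.42 ± 0.24 without overlap, and by 0.14 within slide 1. Vamp2, a protein of secretory vesicles, differed by -0.25 ± 0.22, and by -0.04 within slide 1. Abcc8, the regulatory subunit of the ATP-sensitive channel, read 6.82 and 6.72 in EXO-STD and 6.88, 6.71 and 6.85 in EXO-HP, a difference of 0.04 ± 0.19.

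Promoter sequences of 69 of the 93 genes were found in RefSeq (GRCm38.p6), as 300 bases from 250 before to 50 after the transcription start. A promoter was called CpG-rich where its ratio of observed CG pairs to those its base content would give was above 0.6 and its GC content above 50%. Of the expressed potassium channel genes 13 of 41 (31.7%) had a CpG-rich promoter, and of those not expressed 8 of 28 (28.6%). Among all array genes with a promoter the same shares were 59.2% of 10974 expressed and 16.1% of 4005 other genes, and 33.9% of all 27025 promoters were CpG-rich. By class, among genes with a promoter in the table, 5 of 7 Kcnh genes, 5 of 12 voltage-gated pore genes, 3 of 11 two-pore channels, 3 of 13 inward rectifiers and 1 of 10 accessory subunits were CpG-rich. The 7 Kcnh genes include Kcnh7, which was not expressed, and not Kcnh3. The probes of expressed and other potassium channel genes had similar GC contents, with medians of 43.3% and 45%. The promoters of Kcnk16, expressed with 2 CG pairs in its 300 bases, and Kcna2, well above background on 1 array with 31 CG pairs, are shown as a CG-poor and a CG-rich case. Over the 69 promoters the count ran from 0 to 49. The 250 bases before each start are given 5′ to 3′ (GRCm38.p6), with CG pairs in capitals. The Kcnk16 stretch holds 0 and that of Kcna2 holds 18.
Kcnk16 promoter, chr14:20269270-20269519, minus strand: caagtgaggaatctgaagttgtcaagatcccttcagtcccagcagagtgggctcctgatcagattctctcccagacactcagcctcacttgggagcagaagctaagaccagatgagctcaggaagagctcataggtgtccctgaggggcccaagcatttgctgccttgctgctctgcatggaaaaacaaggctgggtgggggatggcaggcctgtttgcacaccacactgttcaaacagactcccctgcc
Kcna2 promoter, chr3:107101317-107101566, plus strand: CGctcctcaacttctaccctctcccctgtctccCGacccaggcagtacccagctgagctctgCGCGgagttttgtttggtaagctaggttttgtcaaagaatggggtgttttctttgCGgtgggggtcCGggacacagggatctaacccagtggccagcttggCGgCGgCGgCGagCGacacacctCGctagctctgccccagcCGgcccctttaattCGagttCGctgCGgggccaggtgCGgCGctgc
A CG count is a description of these letters and names no factor.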

How the data were processed

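Per the file headers, the Cy3 intensity of each spot was background-subtracted and detrended by version 10.7.3.1 of Feature Extraction in all 5 scanner tables. Per the submitters' processing notes, Agilent Feature Extraction 9.1 and limma were used. The deposited value table of the series holds log2 values, used as an alternative only; 0 of its columns were unmatched. Probe positions are on mm9, per the file headers.

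Log2 of the processed signal was averaged over usable spots of a probe, less the 75th percentile of its array. A probe was tested if it had a usable spot on every array (110 did not) and was well above background on 2 or more arrays in either group (7376 were not). The 31943 remaining probes went into lmFit and eBayes of limma 3.58.1 (R 4.3.3; no covariates, 3 residual and 2.59 prior degrees of freedom) with Benjamini-Hochberg adjustment over all of them and a threshold of 0.05. No member spot was saturated. The fit was tested on simulated data. The number of arrays limits the precision. Symbols are those of the array tables; for 87 of the 93 genes the accession matched a RefSeq gene, and 0 symbols differed.

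Members, lists, tests and the rule for named genes were chosen with earlier results of these data known. The rule took the 12 brightest expressed genes, the 6 with the smallest p in each direction, and 16 genes known from beta cells or not channels. It also took genes whose probes differed in sign, genes detected on 4 arrays, and the 2 partner genes with the smallest p in each direction. Kcnj12, Kcnh7, Kcng3, Kcnj16, Kcnj13, Kcnj14, Kcns3, Kcnq3, Kcnj11, Abcc8 and Kcna2 fall outside it and were named after their values were seen. Single-gene results of 3 expressed genes are not reported here, though class counts and medians include them. Alternatives covered background correction, scaling, the deposited table, the filter, slide and replicate blocks, array weights, the choice of probe and each array left out.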

Additional observations from a re-analysis of the deposited data

How the results depend on the processing

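No adjusted call was made under any of the alternatives fitted that kept all 5 arrays. Without EXO-STD replicate 1, 3 probes passed adjusted p 0.05, none of them an expressed potassium channel gene, and without the other arrays 0 passed. The number of expressed genes at an unadjusted p under 0.05 was 0 in the main analysis. It was 1 after normexp (Kcnh4) and with slide as a fixed block (Kcnh8), 2 when only probes above background on all arrays were tested and with slide as a random block (Kcnmb4 and Kcna6), 3 with array weights (Kcnh3, Kcnmb4 and Kcna6), and 0 to 4 with 1 array left out. The 4 arose without EXO-HP replicate 1 (Kcnh3, Kcnmb4, Kcna6 and Kcnd3). The share of all expressed genes with such a p also moved, from 2.96% in the main analysis. It was 1.58% after normexp, 1.34% with slide as a fixed block and 4.01% with slide as a random block. With only probes above background on all arrays it was 4.25%, with array weights 4.97%, and without EXO-HP replicate 1 it was 5.57%. Of the partner genes, 1 had such a p after normexp, median scaling, in the deposited table and with array weights (Dlg4 each time), and 0 to 1 with 1 array left out.

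The median difference of the expressed genes was 0.11 in the main analysis. It was 0 after normexp and in the deposited table, -0.01 after quantile normalisation, -0.07 after median scaling, 0.07 with slide as a random block, 0.08 with the replicate block, 0.15 with array weights, and 0.08 to 0.18 with 1 array left out. Groups did not overlap for 18 to 32 genes with 1 array left out, where fewer arrays have to lie apart. The share of all expressed genes with the same arrays left out was not computed, so this range is not read as a result about potassium channels. The count of expressed genes was 86 when 1 array above background was enough, and 55 to 58 with 1 array left out. Of the 55 genes, 20 kept the sign of their difference in all 15 alternatives that were fitted to single probes, 14 higher and 6 lower, among them 5 of the 7 Kcnh genes. These alternatives are not independent. Those that change the probe filter leave the differences as they were, and the replicate block gives the differences found without EXO-HP replicate 3. The share of all expressed genes that kept their sign was not computed, so these counts are not read as a result about potassium channels.

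The number of expressed genes with a higher mean in EXO-HP changed with the scaling, as given above. Among the genes whose single differences are reported or that were tested while dim, other genes left aside, these changed sign. After normexp, Kcnk1 0.09, Kcnb2 -0.13, Kcnj6 -0.08, Kcnmb3 -0.02, Kcnq3 -0.10 and Kcne4 -0.09. After quantile normalisation, Kcnb2 -0.12, Kcnj6 -0.19, Kcnip1 -0.01, Abcc8 -0.05 and Kcnmb3 -0.17. After median scaling, Kcnip3 -0.13, Kcna4 -0.13, Kcnma1 -0.11, Kcnq1ot1 -0.09, Kcnb2 -0.15, Kcna5 -0.06, Kcnj6 -0.01, Kcnk16 -0.05, Kcnip1 -0.14, Kcnj11 -0.05 and Abcc8 -0.13. In the deposited table, Kcnk1 0.10, Kcnb2 -0.16, Kcnj6 -0.12 and Kcnmb3 -0.04. Within slide 1, Kcnip3 -0.05, Kcnab3 0.16, Kcna7 0.20, Kcnh2 -0.01, Kcnk16 -0.02, Kcnf1 -0.18, Kcnip2 -0.27, Kcnq3 -0.38 and Kcnn4 -0.68. With array weights, Kcnk16 -0.04, Kcnip1 -0.01 and Kcnj5 0.01, and with the mean of all its probes Kcnma1 -0.04. With 1 array left out, signs turned within -0.05 to 0.10 for Kcnip3, -0.05 to 0.15 for Kcna4, -0.23 to 0.35 for Kcnma1, -0.26 to 0.10 for Kcnk1, -0.59 to 0.75 for Kcnq1ot1, -0.21 to 0.26 for Kcnb2, -0.06 to 0.39 for Kcnj6, -0.07 to 0.26 for Kcnk16, -0.13 to 0.21 for Kcnip1, -0.30 to 1.32 for Kcnip2, -1.06 to 0.47 for Kcng1, -0.22 to 0.51 for Kcnq3, -0.38 to 0.25 for Kcns3, -0.80 to 0.58 for Kcnj5, -0.78 to 0.04 for Kcnk9 and 0 to 0.10 for Abcc8. The cause was not tested. The dim genes among these (Kcnip2, Kcng1, Kcnq3, Kcne4, Kcnn4) and Kcns3, Kcnj5, Kcnk9, Kcnj11 and Abcc8 were checked after the data had been seen. Same-numbered arrays did not deviate together over the tested probes (r = -0.0176 between the within-group differences of replicates 1 and 2). EXO-HP replicates 1 and 2 lay on different slides, so this correlation cannot tell whether the numbers pair the samples. With the replicate block the count at an unadjusted p under 0.05 stayed at 0, and Kcnip3 (-0.05), Kcnma1 (-0.10), Kcnq1ot1 (-0.13) and Kcnb2 (-0.15) changed sign.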

Other observations

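Some expressed genes outside the rule for named genes were singled out after their values were seen. For Kcnk9, Kcnj5 and Kcnk4 a single array or probe stood out. Kcnh1 was named after its difference between the groups had been seen. Kcnk9, an acid-sensitive two-pore leak channel, read -2.92 and -3.50 in EXO-STD and -3.21, -4.75 and -3.13 in EXO-HP, so that EXO-HP replicate 2 alone was low (difference -0.49 ± 0.55, SE; 0.04 without that array). Kcnj5, a G protein-gated inward rectifier, read -3.72 and -5.10 in EXO-STD and -4.64, -4.60 and -4.32 in EXO-HP. Its EXO-STD arrays enclosed all EXO-HP arrays, and the difference was -0.11 ± 0.43, or 0.58 and -0.80 without EXO-STD replicate 1 and 2. Kcnk4, a two-pore channel opened by stretch and heat, had 2 probes above background on all arrays. The brighter read -0.96 and -1.18 in EXO-STD and -0.89, -0.96 and -0.67 in EXO-HP. The dimmer read -5.37 and -5.01 in EXO-STD and -5.23, -3.83 and -3.83 in EXO-HP, with both arrays of slide 2 high. The differences were 0.23 ± 0.21 and 0.89 ± 0.49. Kcnh1, a slowly activating member of the Kcnh class, read -2.69 and -2.52 in EXO-STD and -2.18, -2.39 and -2.20 in EXO-HP, a difference of 0.34 ± 0.20 without overlap (range over 16 alternatives 0.17 to 0.43).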
